A study of Mus musculus with 16 samples.

Results

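The genes of MHC class I antigen presentation were followed in mouse monocytes that were unstimulated or had been given IFN-γ and CD40L. They are 10 genes, H2-K1, H2-D1, H2-Q4, H2-Q7, H2-T23, B2m, Tap1, Tap2, Tapbp and Nlrc5, taken by symbol from a table of 13085 genes. All 10 passed the filter on low values in every comparison. The 16 libraries divided by time into 8 harvested at 6 h and 8 at 24 h, and at each time 4 were unstimulated and 4 had received IFN-γ plus 1 µg/mL MegaCD40L, a multimeric form of the ligand of CD40. No library had received IFN-γ alone or CD40L alone, so the effects of IFN-γ and CD40L cannot be told apart. The comparisons ask how far these genes respond to the stimulus, whether the response differs between the times, and whether it depends on the receptor gene Nfam1.

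All cells were C57BL/6 and were either wild type (NFAM1+/+) or knockout (NFAM1-/-), the latter from mice carrying a Cas9 deletion of exons 2 and 3 of Nfam1 and bred, as were the NFAM1+/+ mice, from crosses between heterozygotes. The animals' ages are not given in the sources used here, the labels call the cells PBL Monocyte, and the study's methods describe monocytes isolated from bone marrow. At 6 h each genotype had 2 libraries per state. For 4 libraries at 24 h the genotype in the title contradicts the tag, so these libraries were used for stimulus and time only, and 1 library of each genotype per state remained. The study used 4 NFAM1+/+ and 6 NFAM1-/- mice without giving their division between times, and nothing says that the libraries of a group came from separate animals or cultures. The p-values therefore measure the spread between these libraries, which may be technical. Libraries of 1 time also share whatever was done together at that time, so time and such a batch cannot be told apart.

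MHC class I molecules display peptides from inside the cell to CD8+ T cells. A heavy chain pairs with the light chain β2-microglobulin in the endoplasmic reticulum, where tapasin holds it next to the TAP transporter until a peptide pumped in from the cytosol has been loaded. IFN-γ is known to raise transcription of these genes through transcription factors such as IRF1, and NLRC5 is known as the transactivator of class I genes at a conserved promoter module that binds RFX, CREB/ATF and NF-Y factors.

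Depth ranged from 48295939 to 88514341 reads per library at 6 h and from 56328053 to 77256316 at 24 h. The fewest reads behind any value of the 10 genes were 1340, for H2-Q7, so the spread between libraries rather than counting limited the precision. Nfam1 was counted over the whole gene, of which exons 2 and 3 are a part, and therefore checked the genotype labels little. Unstimulated at 6 h it stood at 408 and 432 CPM (reads relative to a scaled library size) in NFAM1+/+. In NFAM1-/- it stood at 299 and 321 CPM (log2 difference of -0.44, adjusted p = 0.0799 in limma). Stimulated at 6 h it stood at 133 and 129 CPM in NFAM1+/+ and at 135 and 127 CPM in NFAM1-/-. There the log2 difference was -0.01 (adjusted p = 0.978 in limma). In stimulated libraries at 6 h Nfam1 therefore gave no check on the labels. At 24 h, grouped by title, it stood without the stimulus at 463 and 495 CPM in NFAM1+/+ and 441 and 391 CPM in NFAM1-/-. With the stimulus it stood at 271 and 252 CPM in NFAM1+/+ and 201 and 223 CPM in NFAM1-/-. The ranges of the genotypes did not overlap by title and did by tag. What this says of the labels was not tested. All 12 monocyte markers of a list had values. They summed to 23489 to 25662 CPM without and 9425 to 11310 CPM with the stimulus at 6 h, and to 27777 to 32040 and 9445 to 12548 CPM at 24 h, and Lyz2, the lysozyme of myeloid cells, had the highest mean of them in all 4 states. Of these 12 markers 7 were called lower in NFAM1+/+ and 6 in NFAM1-/- at 6 h and 8 at 24 h, and 2, 2 and 1 were called higher, by the rule given below. In these 3 comparisons 20.1%, 19.4% and 18.9% of all genes tested were called lower, and 19.6%, 18.8% and 14.4% higher. Of other cell types, 2 of 6 B cell, 2 of 6 T cell and 0 of 6 NK cell markers had values, and the B and T cell markers summed to at most 17.4 and 4.54 CPM. Neutrophil markers (8 of 8) summed to 72.0 to 358 CPM at 6 h, and at 24 h to 531 to 916 CPM without and 123 to 211 CPM with the stimulus. Dendritic cell markers (6 of 6) summed to 50.4 to 67.0 and 34.7 to 51.4 CPM at 6 h, and to 141 to 303 and 34.5 to 40.2 CPM at 24 h. Of the 6 dendritic cell markers 2 were called lower and 3 higher in each genotype at 6 h, and 3 and 2 at 24 h. These marker counts and those that follow stand against the same shares of all genes. Erythroid markers (4 of 6) summed to 3.31 to 41.7 CPM at 6 h and 0.804 to 18.4 CPM at 24 h. Of the neutrophil markers tested 0 of 7 were called in either genotype at 6 h, and 7 of 8 were called lower at 24 h. Of the erythroid markers tested 3 of 4 were called higher at 6 h in NFAM1+/+ and 0 of 4 in NFAM1-/-. At 24 h 2 of 2 erythroid markers were called lower. The 1 B cell marker tested was called lower in all 3 comparisons. Of the T cell markers tested 1 of 2 was called higher in each genotype at 6 h and 0 of 1 at 24 h. Some markers of each type with values thus changed with the stimulus, and their part in the results was not tested. In bulk RNA fewer cells of a type and less RNA per cell cannot be told apart.

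The promoters are shown first so that letters of the class I promoter module could be searched for and compared between members. RefSeq promoter entries on GRCm38.p6 matched 8 of the 10 genes. Tap2 and Nlrc5 were among those without an entry. In the sequences below, written 5′ to 3′ on the gene's own strand and ending at the base before the start, capitals mark matches on either strand to the NF-kB consensus, to interferon response letters, to the core of the CRE bound by CREB/ATF factors and to the Y box bound by NF-Y. The letters searched follow the sequences, except those of the NF-kB consensus, which is given by name. Stretches of H2-K1 (chr17:34000348-34000597, minus strand) and B2m (chr2:122147437-122147686, plus strand) stand for the classical heavy chain and the light chain. The stretch of Tap1 (chr17:34187331-34187555, plus strand) is the whole interval of 225 bases between its start and that of Psmb9, which is transcribed in the other direction. H2-Q4 (chr17:35379439-35379616, plus strand) and H2-Q7 (chr17:35439018-35439154, plus strand) are shown because they differ most from the other members in time, a choice made after their values were seen.
H2-K1: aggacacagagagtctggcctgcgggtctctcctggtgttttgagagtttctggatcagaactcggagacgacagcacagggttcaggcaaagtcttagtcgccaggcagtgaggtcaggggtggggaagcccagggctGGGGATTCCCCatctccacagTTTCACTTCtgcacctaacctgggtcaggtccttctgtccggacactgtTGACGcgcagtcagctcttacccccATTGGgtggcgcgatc
B2m: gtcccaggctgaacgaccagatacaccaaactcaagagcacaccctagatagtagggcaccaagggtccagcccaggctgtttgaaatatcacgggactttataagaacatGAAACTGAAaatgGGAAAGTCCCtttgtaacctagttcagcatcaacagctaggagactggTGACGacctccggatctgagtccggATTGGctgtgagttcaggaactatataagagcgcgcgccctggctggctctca
Tap1: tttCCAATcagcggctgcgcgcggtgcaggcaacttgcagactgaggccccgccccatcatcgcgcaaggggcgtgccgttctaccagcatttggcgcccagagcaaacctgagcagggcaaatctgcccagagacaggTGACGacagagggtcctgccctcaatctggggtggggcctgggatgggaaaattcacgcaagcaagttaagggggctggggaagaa
H2-Q4: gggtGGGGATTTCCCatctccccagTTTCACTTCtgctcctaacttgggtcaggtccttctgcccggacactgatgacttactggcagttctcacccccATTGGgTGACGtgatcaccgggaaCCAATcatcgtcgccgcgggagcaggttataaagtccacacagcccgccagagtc
H2-Q7: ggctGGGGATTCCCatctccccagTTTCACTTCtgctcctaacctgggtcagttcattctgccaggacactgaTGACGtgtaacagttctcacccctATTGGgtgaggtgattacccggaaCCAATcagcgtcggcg

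In 250 bases before the start, the Y box letters CCAAT, read as ATTGG on the other strand, were found in 8 of the 8 members with an entry, against 33.8% of 32851 promoters. The CRE core TGACG was found in 6 of 8 (B2m, H2-D1, H2-K1, H2-Q4, H2-Q7 and Tap1), against 17.8%. The NF-kB consensus was found in 5 of 8 (the same genes without Tap1), against 3.9% of promoters. The interferon response letters GAAANNGAA were found in B2m and H2-T23, against 7.13%, while the mirrored form GAANNGAAA, searched after the values were seen, was found in H2-K1, H2-D1, H2-Q4 and H2-Q7, against 6.31%. In H2-K1 the order was NF-kB at -111 to -101, the interferon response letters at -90 to -82, TGACG at -41 to -37 and ATTGG at -16 to -12, counted back from the start. In B2m the interferon match at -139 to -131 lay upstream of NF-kB at -126 to -117, and TGACG at -78 to -74 and ATTGG at -53 to -49 followed. In the heavy chains H2-Q4 and H2-Q7, NF-kB and interferon letters lay at -174 to -164 and -153 to -145, and at -133 to -124 and -113 to -105. The order of TGACG and the Y box was not the same in all members. In H2-Q4 TGACG at -73 to -69 followed ATTGG at -79 to -75 and preceded CCAAT at -55 to -51. In Tap1 TGACG at -86 to -82 followed CCAAT at -222 to -218. H2-T23 and Tapbp had no match to TGACG. The promoters of H2-K1, H2-D1, H2-Q4 and H2-Q7 resemble each other around the NF-kB and interferon response letters. Their matches are therefore not separate occurrences to set against the share of all promoters. All these matches describe letters in a window, not sites.

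With the stimulus the class I genes were higher at both times. A gene was called in limma when its level differed by at least 2-fold with an adjusted p (Benjamini-Hochberg, over all genes tested) under 0.05. At 6 h, 9 of the 10 genes were called higher in NFAM1+/+ monocytes, against 19.6% of the 12111 genes tested, and 10 of 10 in NFAM1-/- monocytes, against 18.8%. At 24 h, 10 of 10 were called higher, against 14.4% of 12164 genes. The median log2 fold change of the 10 genes was 3.21, 3.32 and 3.38 in these 3 comparisons, and that of all genes was -0.11, -0.10 and 0.00. In each of the 10 genes and at each time, all 4 stimulated libraries lay above all 4 unstimulated libraries, as did those of 33.7% of genes at 6 h and 36.3% at 24 h. The summed level of the 10 genes ran from 5074 to 5910 CPM without and 28807 to 30977 CPM with the stimulus at 6 h, and from 4808 to 6013 and 26693 to 29352 CPM at 24 h.

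**Figure D1:**
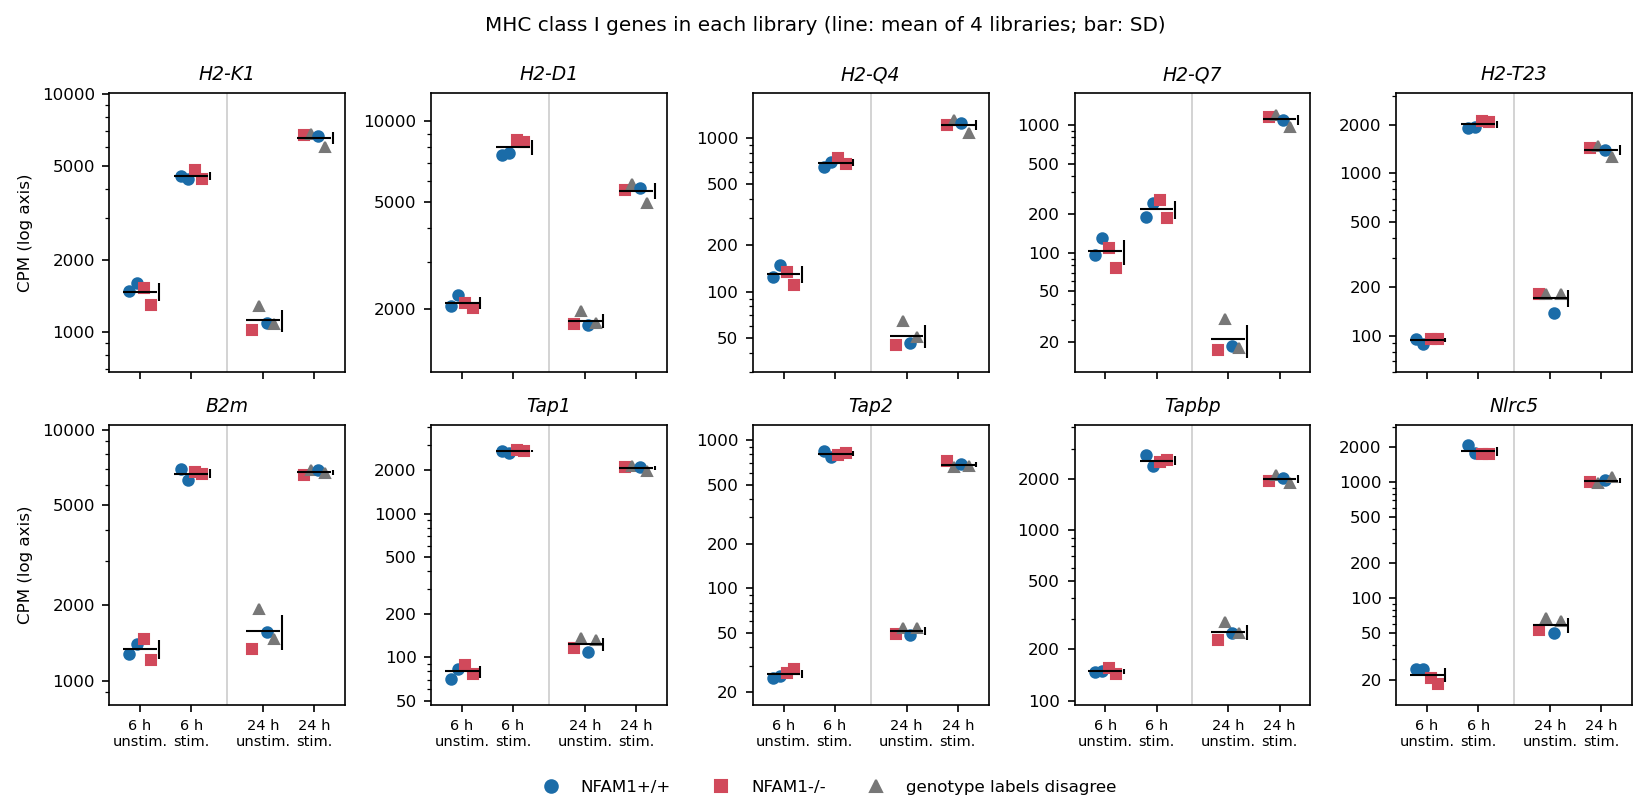
CPM on a log axis for each of the 10 genes in each of the 16 libraries, by time and stimulus, with 1 point per library, a line for the mean of 4 libraries and a bar for the SD. In every panel the stimulated libraries lie above the unstimulated libraries of the same time, and H2-Q7 and H2-Q4 show a wider gap at 24 h than at 6 h.

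The deposited scaling enters these fold changes. Reads divided by the scaled library size came to 0.756 to 0.775 without and 1.24 to 1.32 with the stimulus at 6 h, and to 0.776 to 0.788 and 0.97 to 0.997 at 24 h. When each library was scaled to its own total instead, the median of all genes moved from -0.11 to -0.84 in NFAM1+/+ and from -0.10 to -0.84 in NFAM1-/- at 6 h, and from 0.00 to -0.33 at 24 h. The share of called genes that were higher moved from 49.3% to 22.6%, from 49.2% to 22.1% and from 43.3% to 29.8%. Under that scaling 8, 8 and 10 of the 10 class I genes were called higher in the 3 comparisons, against 12.5%, 12.0% and 11.0% of all genes. The size of each fold change thus depends on the scaling.

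H2-K1 and H2-D1 encode the classical heavy chains, which present peptides to most CD8+ T cells. H2-K1 (chr17:33996017-34000347, minus strand, GRCm38, GENCODE vM21) stood at 1479.5 and 1597 CPM in unstimulated NFAM1+/+ and 1532 and 1294 CPM in unstimulated NFAM1-/- libraries at 6 h. With the stimulus it stood at 4506 and 4387 CPM in NFAM1+/+ and at 4770.1 and 4391 CPM in NFAM1-/-. The ranges did not overlap between states, and the fold change was 2.89 (95% CI 2.46 to 3.41, adjusted p = 1.1e-06) in NFAM1+/+ and 3.25 (2.76 to 3.83) in NFAM1-/-. At 24 h the gene stood at 1014, 1286, 1089 and 1077 CPM without and 6726, 6754, 6659 and 5996 CPM with the stimulus, a rise of 5.87-fold (5.09 to 6.76, adjusted p = 1.68e-09). Scaling to the library's own total gave log2 fold changes of 0.80 and 0.97 for H2-K1 at 6 h and quantile normalization 0.14 and 0.35, so that at this time its call was lost under both. H2-D1 (chr17:35262730-35267499, plus strand) rose from 2109 ± 107 CPM (SD, n = 4) to 8006 ± 518 CPM at 6 h and from 1814 ± 106 to 5511 ± 365 CPM at 24 h. The folds were 3.51 in NFAM1+/+ (3.04 to 4.06, adjusted p = 1.53e-07), 4.10 in NFAM1-/- and 3.04 at 24 h (2.67 to 3.46, adjusted p = 3.04e-08). Quantile normalization gave log2 changes of 0.77 in each genotype at 6 h and of 0.96 at 24 h, under the minimum fold.

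H2-Q4 and H2-Q7 encode heavy chains of the nonclassical Q region, H2-Q7 being a source of the antigen Qa-2, and both showed their larger response at 24 h. H2-Q7 (chr17:35439155-35443773, plus strand) stood at 95.4 and 130.5 CPM in NFAM1+/+ and 108 and 76.7 CPM in NFAM1-/- without the stimulus at 6 h. With it the gene stood at 189.6 and 244 CPM in NFAM1+/+ and at 257 and 188 CPM in NFAM1-/-. The fold change of 1.93 in NFAM1+/+ (95% CI 1.37 to 2.71, adjusted p = 0.00337) was just under the minimum fold, and that of 2.41 in NFAM1-/- (1.72 to 3.39, adjusted p = 6.03e-04) was called, while the difference between the genotypes was not (log2 difference of 0.32 ± 0.31, SE, adjusted p = 0.807). Without library 2 or library 26 the log2 change in NFAM1+/+ was 1.17 or 1.13 in place of 0.95, and was called. The call in NFAM1-/- was lost with scaling to the library's own total (log2 change of 0.54) and with quantile normalization (0.74). At 24 h H2-Q7 stood at 17.4, 30.2, 18.5 and 18.1 CPM without and at 1150.2, 1199, 1105 and 974 CPM with the stimulus. The rise of 53.9-fold (42.3 to 68.5, adjusted p = 2.11e-10) placed it at rank 163 of 12164 genes by fold, ahead of the other 9 members. H2-Q4 (chr17:35379617-35385290, plus strand) rose from 129 ± 16.5 to 691 ± 39.8 CPM at 6 h, by 4.94-fold in NFAM1+/+ and 5.84-fold in NFAM1-/-. At 24 h it rose from 51.6 ± 8.77 to 1215 ± 97.7 CPM, by 23.7-fold (20.1 to 28.1, adjusted p = 8.48e-11).

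H2-T23 encodes the heavy chain of Qa-1, which presents leader peptides of other class I molecules to NK cell receptors. H2-T23 (chr17:36029773-36032855, minus strand) stood within a narrow range without the stimulus at 6 h, at 95.4, 89.8, 95.8 and 95.7 CPM. With the stimulus it stood at 1907 and 1939 CPM in NFAM1+/+ and 2096 and 2087 CPM in NFAM1-/-. These are rises of 20.8-fold (18.7 to 23, adjusted p = 1e-10) and 21.8-fold, several times those of the classical heavy chains in the same libraries. At 24 h it rose by 8.18-fold (7.07 to 9.47, adjusted p = 5.92e-10), from 181, 181, 139 and 182 CPM to 1434, 1486, 1392 and 1255 CPM. The unstimulated level at 24 h therefore lay above that at 6 h in all 4 libraries, and the stimulated level below it.

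B2m encodes β2-microglobulin, the light chain common to all class I molecules. B2m (chr2:122147686-122153083, plus strand) stood at 1279 and 1398 CPM in NFAM1+/+ and 1463 and 1208 CPM in NFAM1-/- without the stimulus at 6 h, and at 6963, 6307, 6758 and 6690.5 CPM with it. At 24 h it stood at 1343, 1933, 1567 and 1464 CPM without and 6576, 6883, 6900.4 and 6754 CPM with the stimulus. Under the deposited scaling the stimulated level was thus nearly the same at the times. In stimulated libraries reads divided by the scaled size came to 1.24 to 1.32 at 6 h and 0.97 to 0.997 at 24 h. This likeness therefore depends on the scaling. The rises were 4.96-fold in NFAM1+/+ (4.15 to 5.91, adjusted p = 1.11e-07), 5.06-fold in NFAM1-/- and 4.34-fold at 24 h (3.66 to 5.14, adjusted p = 2.96e-08).

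Tap1 and Tap2 encode the subunits of the peptide transporter, and Tapbp encodes tapasin, the chaperone that bridges the transporter and the heavy chain. Tap1 (chr17:34187553-34197225, plus strand) rose at 6 h from 70.5, 83.3, 88.5 and 77.0 CPM to 2708, 2658, 2759 and 2747 CPM, or by 35.0-fold in NFAM1+/+ (30.1 to 40.7, adjusted p = 3.22e-10) and 33.3-fold in NFAM1-/-. At 24 h it rose from 117, 137, 109 and 131 CPM to 2099.7, 2143, 2116 and 1985 CPM, by 17-fold (15.1 to 19.1, adjusted p = 1.8e-11). Tap2 (chr17:34203527-34216321, plus strand) moved alongside it, from 26.4 ± 1.71 to 806 ± 30.7 CPM at 6 h and from 51.4 ± 3.19 to 682 ± 26.4 CPM at 24 h. Its folds were 32.0 and 29.1 in the 2 genotypes at 6 h and 13.3 at 24 h. Tapbp (chr17:33915899-33929292, plus strand) rose from 148 ± 5.01 to 2553 ± 151 CPM at 6 h, by 17.3-fold and 17.1-fold, and from 253 ± 25.0 to 1991 ± 98.0 CPM at 24 h, by 7.91-fold. All 3 thus rose more than the classical heavy chains at 6 h in fold, from lower levels.

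Nlrc5 encodes the class I transactivator and had the largest fold change of the 10 genes at 6 h. Nlrc5 (chr8:94434356-94527272, plus strand) stood at 24.5 and 24.9 CPM in NFAM1+/+ and 20.7 and 18.3 CPM in NFAM1-/- without the stimulus, and at 2079.8, 1792, 1756 and 1763 CPM with it. The rise was 78.2-fold in NFAM1+/+ (68.0 to 90.0, adjusted p = 7.69e-11, rank 258 of 12111 genes by fold) and 90.5-fold in NFAM1-/- (78.6 to 104). At 24 h it stood at 53.5, 68.4, 50.4 and 63.7 CPM without and 1006, 989, 1043 and 1105 CPM with the stimulus. The rise of 17.7-fold (15.3 to 20.4, adjusted p = 6.53e-11) was smaller, the unstimulated level being higher and the stimulated level lower than at 6 h in every library.

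**Figure D2:**
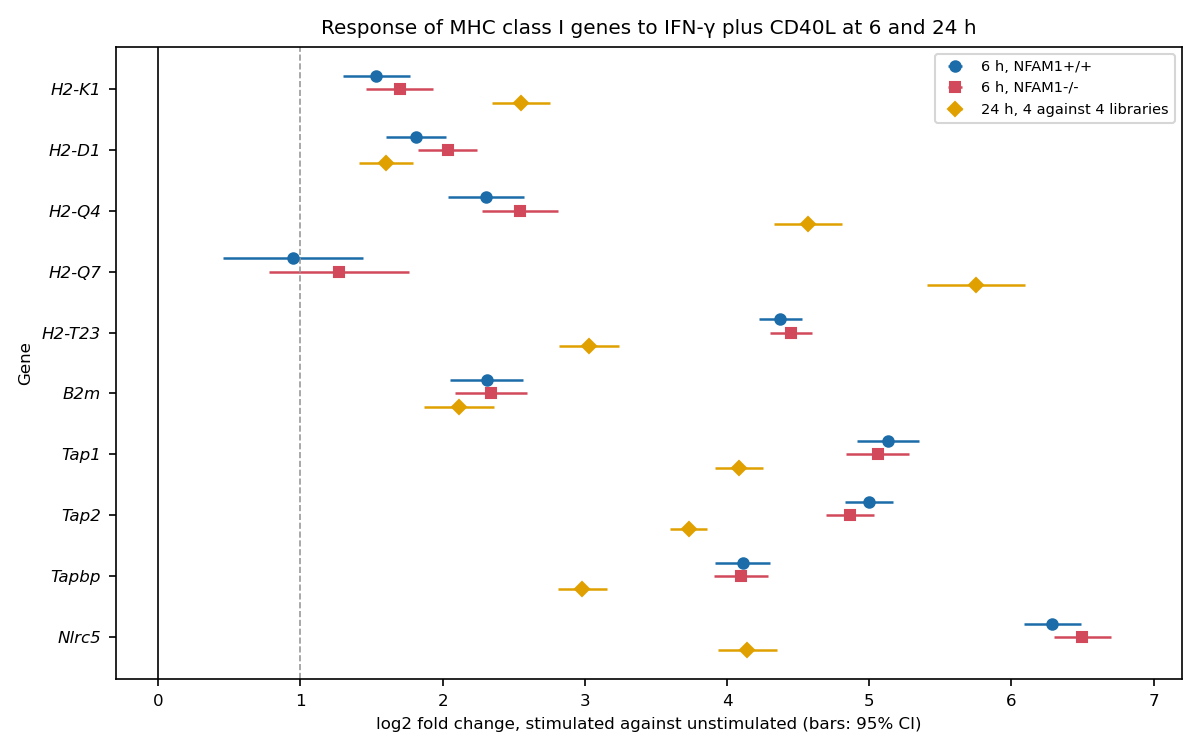
Log2 fold change of each gene with the stimulus, with 95% confidence intervals, in NFAM1+/+ and NFAM1-/- monocytes at 6 h and in all libraries at 24 h. Nlrc5 has the highest values at 6 h (6.29 and 6.50) and H2-Q7 the highest at 24 h (5.75), having the lowest at 6 h (0.95 and 1.27).

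The difference between the responses at 24 and 6 h was tested as an interaction of time and stimulus across all 16 libraries. Of the 10 genes, 2 were called with a larger response at 24 h and 5 with a smaller one, against 13.3% and 18.1% of 12782 genes. H2-Q7 had the largest difference, of 4.64 ± 0.25 on the log2 scale (SE, adjusted p = 1.06e-09, rank 50 of 12782 genes), followed by H2-Q4 at 2.15 ± 0.15 (adjusted p = 1.6e-08). The 5 genes with a smaller response at 24 h were Nlrc5 (-2.25 ± 0.12, adjusted p = 1.28e-09), H2-T23 (-1.38 ± 0.11), Tap2 (-1.20 ± 0.08), Tapbp (-1.12 ± 0.10) and Tap1 (-1.01 ± 0.11). H2-K1, at 0.94 ± 0.12 (adjusted p = 8.08e-06), and H2-D1, at -0.32 ± 0.11 (adjusted p = 0.0158), passed the adjusted p but not the minimum fold, and B2m passed neither (-0.21, 95% CI -0.52 to 0.10, adjusted p = 0.223). The adjusted p alone was thus passed by 9 of the 10 genes, and by 65.5% of all genes. Without the 4 libraries of conflicting genotype labels H2-K1 was called (1.05) and Tap1 was not (-0.87). Tap1 lay just past the minimum fold and its call was also lost without library 1 (-0.95), 4 (-0.96), 44 (-0.96), 46 (-0.98) or 58 (-0.99), while that of H2-K1 was gained without library 44 (1.01). Scaling to the library's own total moved the median of all genes from 0.04 to 0.44 and the share of called genes that were higher from 42.4% to 67.5%. Of the 10 genes 4 were then called, Nlrc5 with a smaller response at 24 h, against 12.2% of all genes, and H2-Q7, H2-Q4 and also H2-K1 (1.33) with a larger one, against 25.3%. H2-T23 (-0.98), Tap1 (-0.61), Tap2 (-0.80) and Tapbp (-0.72) then fell short of the minimum fold, and H2-D1 (0.08) and B2m (0.19) changed sign.

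Unstimulated and stimulated cells both entered these differences, to a degree that varied between genes. Between 24 h and 6 h H2-Q7 differed by -2.30 on the log2 scale without and 2.34 with the stimulus. For Tap2 these values were 0.96 and -0.24, and for Tapbp 0.76 and -0.36. Comparing 24 h with 6 h without the stimulus, 1 gene was called higher, against 13.3% of 12782 genes, and 2 were called lower, against 7.71%. Nlrc5 was higher at 24 h by 1.42 ± 0.09 on the log2 scale (adjusted p = 2.88e-09), and H2-Q7 and H2-Q4 were lower, by -2.30 ± 0.18 (adjusted p = 3.37e-08) and -1.33 ± 0.11 (adjusted p = 5.69e-08). Tap2 (0.96), H2-T23 (0.85), Tapbp (0.76) and Tap1 (0.63) passed the adjusted p alone in the direction of Nlrc5, and H2-K1 (-0.40) and H2-D1 (-0.22) in the direction of H2-Q7. With the stimulus H2-Q7 was called higher at 24 h, by 2.34 ± 0.18 (adjusted p = 1.01e-08), against 16.5% of genes, and 0 of the 10 genes were called lower, against 17.1%. The other differences between stimulated libraries ran from -0.83 for Nlrc5 (adjusted p = 4.14e-07) to 0.81 for H2-Q4 (adjusted p = 5.41e-06). That of B2m was 0.02 under the deposited scaling (95% CI -0.20 to 0.24, adjusted p = 0.855). The adjusted p alone was passed by 9 of the 10 genes in unstimulated and 9 in stimulated cells, against 62.5% and 75.1% of all genes. For this comparison scaling to the library's own total moved the median of all genes from 0.04 to 0.41, and the share of called genes that were higher from 49.1% to 69.4%. Tap2 (0.13) and Tapbp (0.02) then changed sign and H2-Q4 (1.19) was called. The order of the states was therefore not the same for all members. For H2-K1, H2-Q4 and H2-Q7 the level fell in the order stimulated at 24 h, stimulated at 6 h, unstimulated at 6 h and unstimulated at 24 h, all neighbours passing the adjusted p. For Nlrc5, Tap1, Tap2, Tapbp and H2-T23 it fell in the order stimulated at 6 h, stimulated at 24 h, unstimulated at 24 h and unstimulated at 6 h, where the stimulated pair turned for Tap2 and Tapbp with scaling to the library's own total and for these and Tap1 with quantile normalization. H2-D1 was highest when stimulated at 6 h, followed by stimulated at 24 h, unstimulated at 6 h and unstimulated at 24 h, and no pair of states overlapped. For B2m, under the deposited scaling, neither the stimulated nor the unstimulated neighbours (0.23, adjusted p = 0.0652) passed.

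Levels were set side by side between genes as CPM per kilobase of the longest protein-coding transcript. Unstimulated at 6 h, B2m stood highest at 1555 ± 134 CPM per kb, followed by H2-D1 at 1004 ± 50.8 and H2-K1 at 911 ± 80.3. H2-Q4 (72.2 ± 9.22), H2-Q7 (67.5 ± 14.9) and H2-T23 (64.0 ± 1.97) did not differ beyond their spread and lay far below the classical heavy chains. Among the loading genes Tapbp stood at 51.1, Tap1 at 27.0 and Tap2 at 7.68 CPM per kb, and Nlrc5 was the lowest member at 2.91 CPM per kb. Stimulated at 6 h, the order from the top was B2m (7767), H2-D1 (3809), H2-K1 (2788), H2-T23 (1364), Tap1 (920 ± 15.3) and Tapbp (881 ± 52.1), and the last pair did not differ beyond their spread. Below them stood H2-Q4 (386), Nlrc5 (244 ± 20.5) and Tap2 (234 ± 8.91), the last pair again within their spread, and H2-Q7 (144). At 24 h with the stimulus H2-K1 (4036) stood above H2-D1 (2622). The SDs of H2-Q7 (727 ± 63.4), Tap1 (706 ± 23.6), Tapbp (687 ± 33.8) and H2-Q4 (678 ± 54.5) overlapped. Within each of these libraries, however, H2-Q7 stood above H2-Q4. The lengths are from an annotation other than the authors' build, so these levels hold only as far as the transcripts counted have that length.

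The makeup of heavy chain RNA changed with the stimulus and with time. It was described as each gene's share of the CPM per kb summed over H2-K1, H2-D1, H2-Q4, H2-Q7 and H2-T23 in 1 library, a share that no single scaling factor per library can change, though quantile normalization can. The share of H2-T23 was 2.66 to 3.35% without and 15.8 to 16.5% with the stimulus at 6 h, and 5.78 to 7.59% and 10.3 to 10.7% at 24 h. That of H2-Q7 was 2.60 to 3.74% and 1.43 to 1.96% at 6 h, and 0.704 to 1.04% and 7.83 to 8.31% at 24 h, so that its share was lower with the stimulus at the first time and higher at the second. H2-Q4 made up 3.17 to 3.63% and 4.40 to 4.73% at 6 h, and 1.54 to 1.87% and 7.37 to 7.73% at 24 h. The classical pair made up most of the sum throughout. H2-D1 led H2-K1 unstimulated at both times (47.4 to 43.0% at 6 h and 50.5 to 40.2% at 24 h) and stimulated at 6 h (44.8 to 32.9%), whereas H2-K1 led stimulated at 24 h (44.8 to 29.1%). In all of these pairs the ranges of the 4 libraries did not overlap between the genes. No test was run on these shares.

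**Figure D3:**
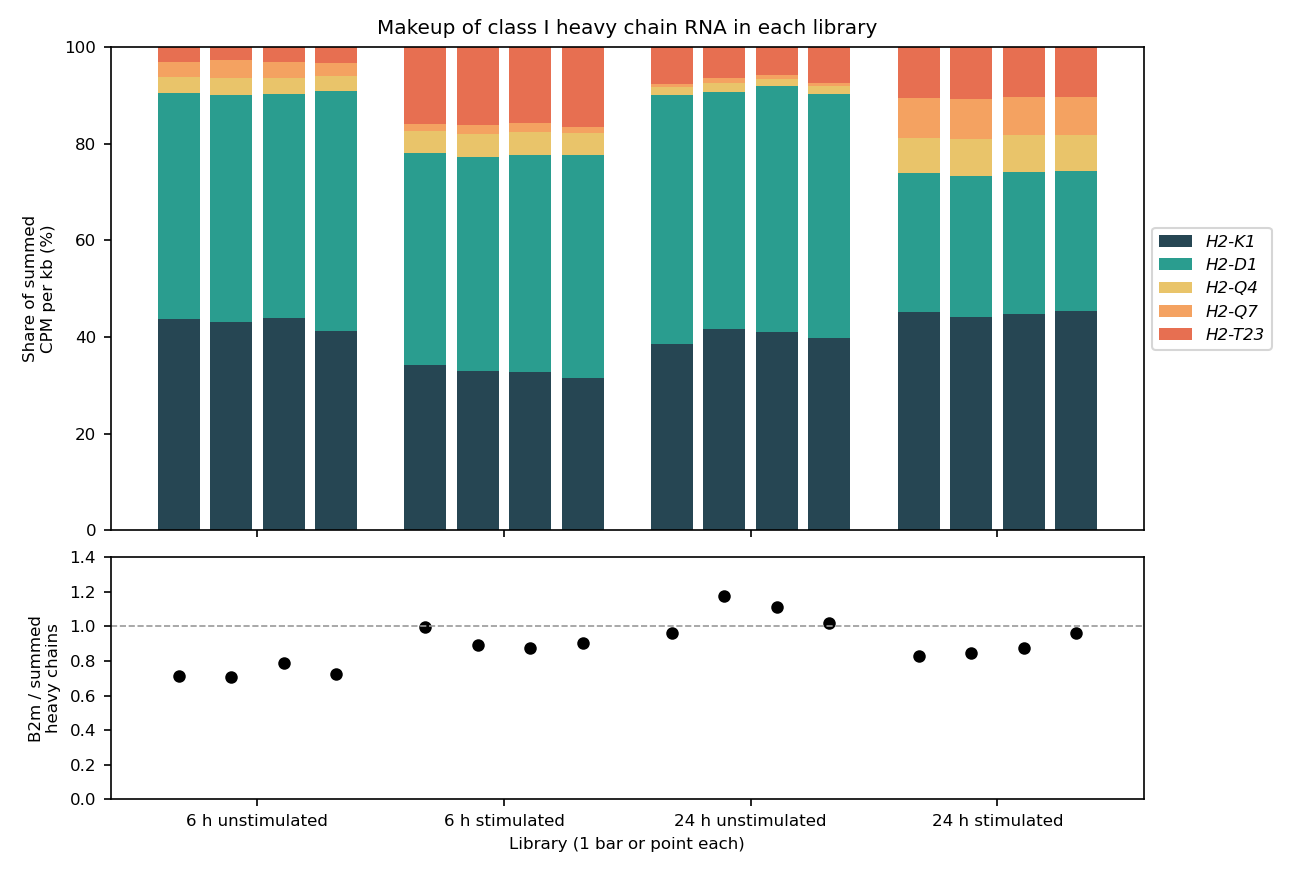
Upper panel, share in percent of each of 5 heavy chain genes in their summed CPM per kb, with 1 bar per library; lower panel, CPM per kb of B2m divided by that sum, with 1 point per library and a dashed line at 1. The bars of H2-T23 widen with the stimulus at 6 h (mean of 3.04% to 16.1%) and those of H2-Q7 and H2-Q4 at 24 h (0.799% to 8.06% and 1.67% to 7.52%).

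The light chain and the transporter were also set against the heavy chains within each library. B2m divided by the summed heavy chains, per kb, was 0.734 ± 0.037 (SD, n = 4) without and 0.916 ± 0.054 with the stimulus at 6 h, and 1.07 ± 0.10 and 0.878 ± 0.059 at 24 h. The heavy chains divided by Tap1 went from 78.7 ± 7.0 to 9.22 ± 0.32 at 6 h and from 41.1 ± 2.75 to 12.7 ± 0.40 at 24 h. Tap1 divided by Tap2 ranged less, with means of 3.53 and 3.93 at 6 h and 2.79 and 3.57 at 24 h. These ratios too are free of any single factor per library.

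At 6 h no class I gene passed the thresholds between NFAM1-/- and NFAM1+/+ monocytes. Of the 10 genes 0 were called in unstimulated cells, in stimulated cells or in the interaction of genotype and stimulus, against 0.0661%, 0.0330% and 0.00% of 12111 genes, and 1058, 1522 and 846 of all genes had an unadjusted p under 0.05 in limma. The lowest p among the members belonged to Nlrc5 in unstimulated cells. Its 2 NFAM1-/- libraries, at 20.7 and 18.3 CPM, lay below the NFAM1+/+ libraries, at 24.5 and 24.9 CPM (log2 difference of -0.34, 95% CI -0.55 to -0.14, adjusted p = 0.250). In stimulated cells Nlrc5 differed by -0.13 (-0.34 to 0.07, adjusted p = 0.559). The differences of the other 9 genes ran from -0.29 (H2-Q7) to 0.14 (Tap2) in unstimulated and from -0.01 (Tapbp) to 0.16 (H2-D1) in stimulated cells. Every 95% CI lay within a 2-fold change in either direction, the widest being those of H2-Q7 in unstimulated (-0.78 to 0.20) and stimulated cells (-0.46 to 0.52). For the interaction the differences ran from -0.13 (Tap2) to 0.32 (H2-Q7), and that of H2-Q7 had a 95% CI of -0.37 to 1.02. Smaller differences could thus not be told from the spread of 2 libraries.

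**Figure D4:**
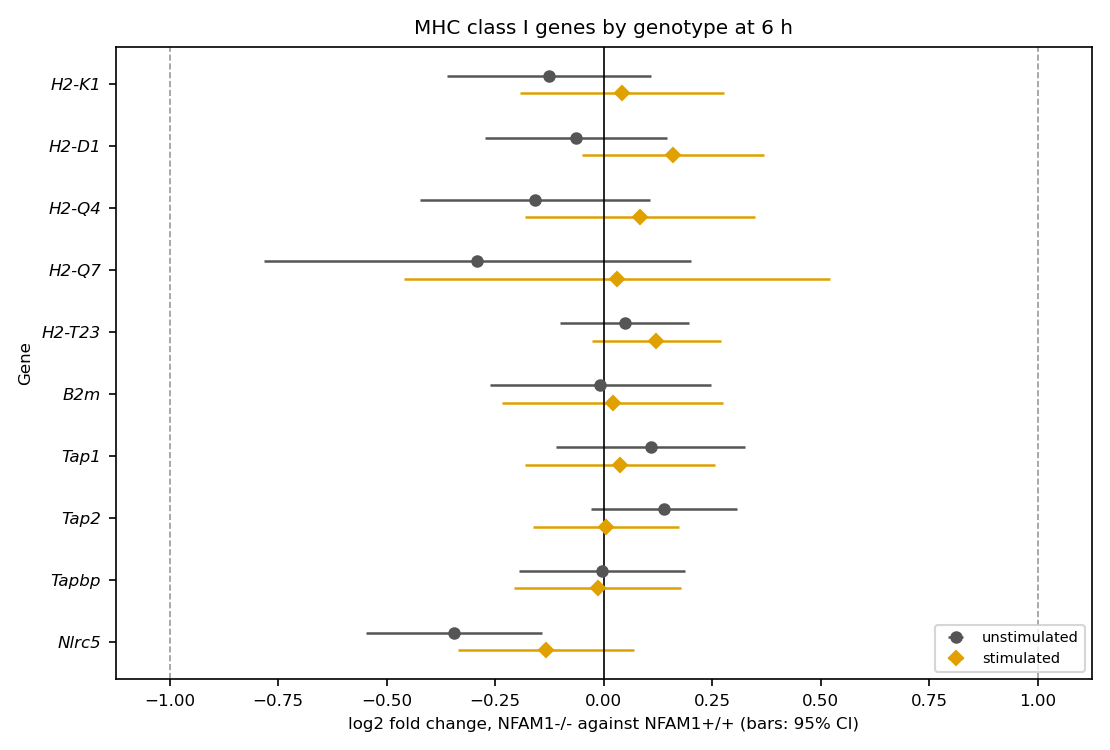
Log2 difference of NFAM1-/- against NFAM1+/+ monocytes at 6 h for each gene, unstimulated and stimulated, with 95% confidence intervals and dashed lines at a 2-fold change. All 20 intervals lie between the dashed lines, and that of unstimulated Nlrc5 (-0.55 to -0.14) is the one that does not cross 0.

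The libraries of the genotypes did not overlap for H2-T23 and Tap2 (NFAM1-/- above) and Nlrc5 (below) in unstimulated cells, where 21.9% of all genes lay above and 20.4% below in this way. In stimulated cells they did not overlap for H2-D1, H2-T23 and Tap1 (above) and Nlrc5 (below), against 24.0% and 19.0%. At 24 h only the libraries with agreeing labels were compared, 1 against 1, with no replicate check. Their log2 differences ran from -0.22 (B2m) to 0.38 (H2-T23) in unstimulated and from -0.07 (B2m) to 0.06 (H2-Q7) in stimulated cells, and 0 of the 10 genes reached a 2-fold difference, against 1.83% of genes higher and 1.22% lower in unstimulated and 1.77% and 1.24% in stimulated cells. The value of H2-T23 rests on the NFAM1+/+ library 45, which lay apart from the other 3 unstimulated libraries at 24 h (139 against 181 to 182 CPM). With all 4 libraries of a state grouped by title or by tag, 2 against 2, 0 of the 10 genes were called in limma, where 27 and 1 of all genes were in unstimulated and 14 and 0 in stimulated cells. An unadjusted p under 0.05 was reached by 1455 and 233 of all 12164 genes in unstimulated and by 2163 and 342 in stimulated cells.

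The genes that feed and assist peptide loading divided by role. Of 16 such genes, 8 were called higher in each genotype at 6 h and 7 at 24 h, and 0 were called lower, with a median log2 change of 0.91, 0.92 and 0.01. The counts for this list and those that follow stand against 19.6%, 18.8% and 14.4% of all genes called higher and 20.1%, 19.4% and 18.9% called lower in these comparisons. Those called were the immunoproteasome subunits and activators and the trimming and editing factors. Psmb9, an immunoproteasome subunit, changed by 5.12, 5.15 and 3.98 (log2, NFAM1+/+ and NFAM1-/- at 6 h, then 24 h), and Psmb8 by 3.50, 3.51 and 3.28. Psme2, a proteasome activator subunit, changed by 3.66, 3.78 and 3.66, Tapbpl, which encodes the peptide editor TAPBPR, by 4.18, 4.35 and 4.56, and Erap1, the aminopeptidase that trims peptides in the endoplasmic reticulum, by 2.16, 2.05 and 1.30. The general chaperones of the endoplasmic reticulum were not called, among them Calr (-0.48, -0.29 and 0.02), Canx and Pdia3. Lnpep, an endosomal aminopeptidase, was called at 6 h (1.44 and 1.23) and stood at -0.44 at 24 h.

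Of 22 further class I heavy chain genes 10 had values and 8 or 9 could be tested. Of these 7 were called higher in each genotype at 6 h and 8 at 24 h, with medians of 2.17, 2.19 and 3.32. H2-Q6 and H2-Q5, which neighbour H2-Q7, also had a larger response at 24 h, by 4.99 ± 0.25 (adjusted p = 5.55e-10) and 3.41 ± 0.17 (adjusted p = 5.36e-10). H2-Q6 had log2 changes of 1.21, 1.45 and 6.31, its mean going from 107 to 266 CPM at 6 h and from 17.6 to 1357 CPM at 24 h, and H2-Q5 had 1.04, 1.03 and 4.45. H2-T24 had 5.68, 5.64 and 3.60, a smaller response at 24 h by -2.06 ± 0.18 (adjusted p = 1.13e-07), and H2-K2 was not called. The class I genes resemble each other in sequence, and reads may be split or moved between them. Of all 101-base windows of the longest transcript, the read length used, 16.2% in H2-Q7 also occurred in another gene (11.6% in H2-Q6 and 4.64% in H2-Q5), 13.8% in H2-Q4 (11.0% in Gm11131 and 1.06% in H2-Q6), 7.07% in H2-T23, 4.60% in H2-D1 and 0% in H2-K1. The values of H2-Q5, H2-Q6 and H2-Q7 are therefore not fully separate measurements.

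Other members overlap neighbours on the genome, and the libraries were not stranded. Overlapping genes covered 29.0% of the exon bases of Tapbp (Gm19412 on the other strand and Zbtb22), 19.1% of H2-Q4 (Gm11131), 18.5% of Tap2 (Gm15821 and Gm20496), 3.87% of Tap1 (Psmb9) and 0.918% of Nlrc5. In these bases the reads of the partners cannot be told apart.

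Of 18 transcription factors linked to class I promoters, 9, 8 and 9 were called higher and 1, 1 and 0 lower, with medians of 1.00, 0.83 and 0.99. Irf1 rose by 6.43, 6.56 and 5.34 on the log2 scale and Stat2 by 4.72, 4.79 and 3.10, and both responses were smaller at 24 h, by -1.15 ± 0.09 (adjusted p = 7.78e-08) and -1.65 ± 0.12 (adjusted p = 3.18e-08). The NF-kB genes Relb (0.42, 0.61 and 1.98) and Nfkb2 (0.89, 0.93 and 2.45) were called at 24 h and not at 6 h, and their responses differed between the times by 1.47 ± 0.16 (adjusted p = 1.63e-06) and 1.54 (adjusted p = 1.5e-07). Rfx5, a subunit of the RFX complex, rose by 2.15, 2.14 and 2.31, whereas Rfxank was called lower at 6 h (-1.25 and -1.16) and stood at 0.33 at 24 h. The NF-Y subunits were not called.

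**Figure D5:**
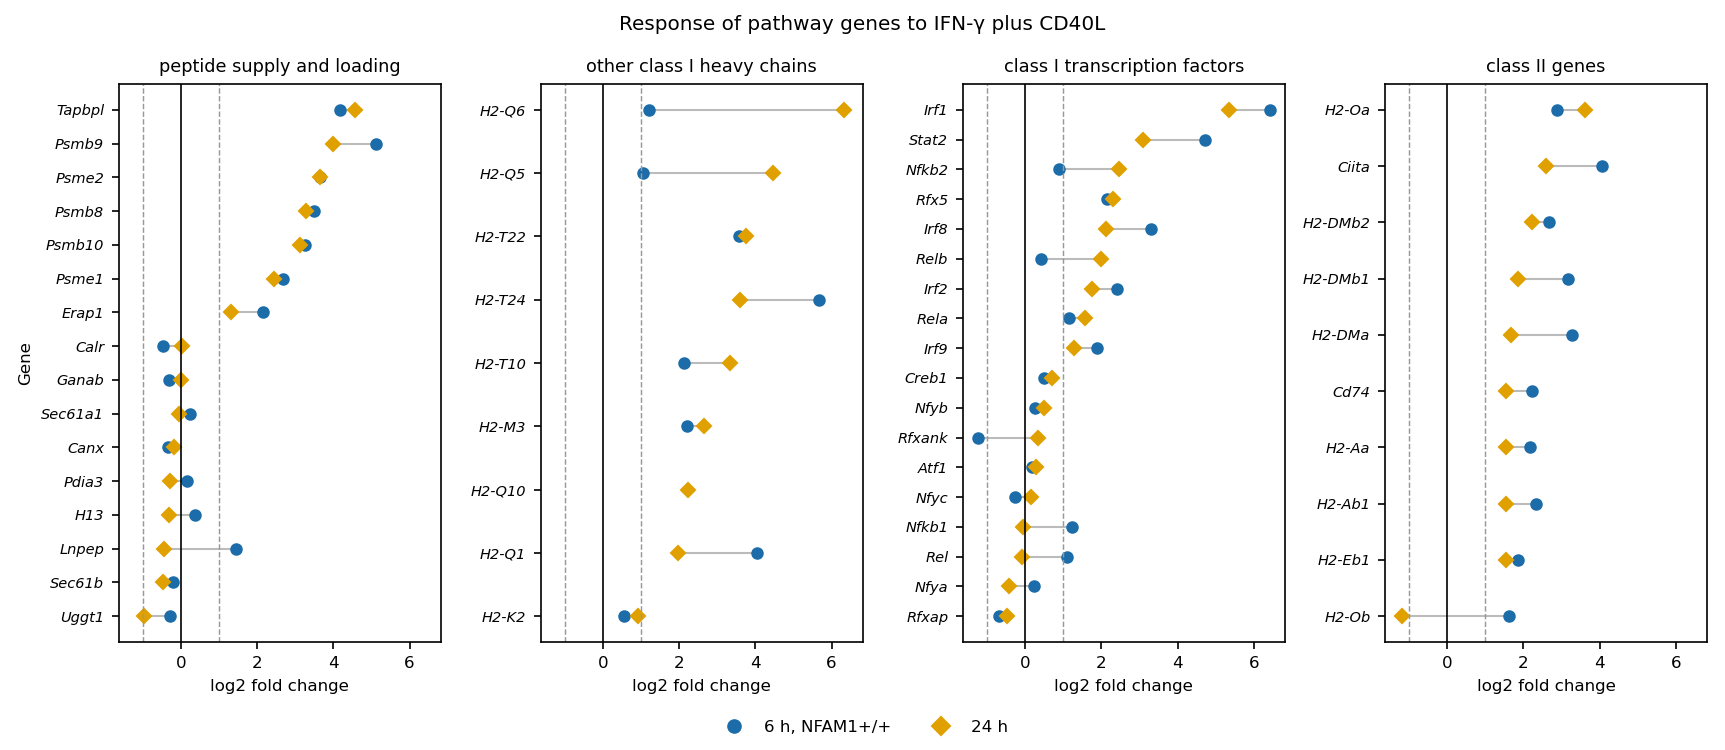
Log2 fold change with the stimulus in NFAM1+/+ monocytes at 6 h (circles) and in all libraries at 24 h (diamonds) for genes of 4 lists, with a line joining the values of a gene and dashed lines at a 2-fold change. H2-Q6 and H2-Q5 lie furthest to the right at 24 h among the other heavy chains (6.31 and 4.45), and the chaperones Calr, Canx and Pdia3 lie near 0.

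Class I-like genes went in both directions. Of those tested (5 at 6 h and 6 at 24 h), 3, 2 and 3 were called higher and 2, 2 and 3 lower. Procr, the endothelial protein C receptor, rose by 5.99, 5.95 and 6.27, Cd1d1, which presents lipids, had 1.23, 0.53 and 2.85, and Hfe (-4.06, -2.90 and -4.25) and Fcgrt (-2.19, -2.97 and -2.50) fell. Of the 10 MHC class II genes 10, 10 and 9 were called higher and 0, 0 and 1 lower, the last being H2-Ob (-1.20). H2-Oa, which encodes a chain of the class II modulator H2-O, rose by 2.87, 2.92 and 3.62, and Ciita, the class II transactivator related to Nlrc5, by 4.07, 4.30 and 2.59. Without the stimulus all 10 class II genes and 1 of the 10 class I genes were called higher at 24 h than at 6 h, against 13.3% of 12782 genes.

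The genes whose pattern over the 16 libraries was most like the mean of the 10 members included 3 proteasome genes. The Pearson correlation of log2 CPM with the mean of the members, each centred on its own mean, was 0.998 for Psmb10, 0.998 for Psme1, 0.997 for Pla2g4a, 0.997 for Psme2 and 0.997 for Tnp2. Tnp2 had 0 reads in every unstimulated library and a geometric mean of 2.36 CPM with the stimulus. These correlations describe 16 libraries that share the difference between stimulated and unstimulated cells. Of the members, B2m was most like their mean (0.996) and H2-Q7 least (0.828). Each member is itself part of that mean, so these values do not compare with those of other genes. Between members the correlation was highest for Tap2 and Tapbp (0.999), and it was 0.991 for H2-K1 and H2-Q4 and 0.689 for H2-Q7 and Nlrc5.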

How the data were processed

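RNA of monocytes was sequenced in 16 libraries, and per the labels libraries were non-stranded, polyA-selected and read as 101-base pairs. The authors aligned reads with STAR after FastQC, counted them with Rsubread and normalized with edgeR. Processing notes name GRCm39/mm39. Annotation, tool versions and the filter on low counts are not given in the sources used here. The deposited values are log2 CPM in the form voom writes, from which reads were recovered (100% whole within 0.01). Genes reaching 1 CPM in 2 or more libraries were fitted with limma 3.58.1 in R 4.3.3 (moderated test, trended prior) in 3 models, of 8 libraries at 6 h (4 residual degrees of freedom), 8 at 24 h (6) and all 16 (10). At 24 h genotypes were pooled. The time comparisons share their libraries with the stimulus comparisons. No count model was fitted to the reads. The fit was tested on simulated data.

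All members are named. Of other lists the 2 largest rises and falls among genes called at 24 h are named, plus genes that show what a list holds. Relb, Nfkb2, Rfxank, Lnpep, H2-T24 and H2-K2 were chosen after their values were seen. Members and lists were chosen with earlier results of these data known. A gene of the transcription factor list and a motif are not reported here. Positions, lengths and windows are from GENCODE vM21 (GRCm38), and promoters from RefSeq (GRCm38.p6). Alternatives were other filters, scalings, priors and weights, no minimum fold change, other sets of libraries and leaving out each library in turn.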

Additional observations from a re-analysis of the deposited data

Results flagged for a closer look

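Library 58 stood apart from the other 3 stimulated libraries at 24 h in H2-K1, its gap to the nearest making up 0.881 of the range of the group. Among the unstimulated libraries at 24 h, library 44 stood apart upwards in H2-D1 (0.881) and H2-Q7 (0.886), and library 45 downwards in H2-T23 (0.988). These shares exceed the 95% critical value of Dixon's test for 4 libraries, which was applied to 20 groups and which chance exceeds in about 1 of 20. The title and genotype tag disagree in libraries 44 and 58. Without the 4 libraries of conflicting labels, 10 of 10 members were still called higher with the stimulus at 24 h.

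For 9 members the response to the stimulus differed between 24 h and 6 h by the interaction test of limma at an adjusted p under 0.05, as it did for 65.5% of all genes. The differences on the log2 scale were 4.64 for H2-Q7, 2.15 for H2-Q4, 0.94 for H2-K1, -0.32 for H2-D1, -1.01 for Tap1, -1.12 for Tapbp, -1.20 for Tap2, -1.38 for H2-T23 and -2.25 for Nlrc5. Time and whatever the libraries of a time share cannot be told apart.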

How the results depend on the processing

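The counts of class I genes called for the stimulus and for the genotype kept within 1.5 times the reported count under every alternative run, and leaving out each library gave 9 to 10 for NFAM1+/+ at 6 h, 10 for NFAM1-/- and 24 h and 0 for the genotype. Within that margin quantile normalization lost the calls of H2-K1 and H2-D1 in both genotypes at 6 h. It also lost those of H2-Q7 in NFAM1-/- at 6 h and of H2-D1 at 24 h. The time comparisons depended on scaling and threshold. Without a minimum fold change 9 rather than 3 genes were called without the stimulus and 9 rather than 1 with it, as were 62.5% and 75.1% of all genes. With scaling to the library's own total 2 were called for time in stimulated cells and 4 rather than 7 for the interaction of time and stimulus, and with quantile normalization 3 were called for time in stimulated cells. Leaving out each library gave 3, 1 and 6 to 7 for these comparisons.

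Some signs turned, including those of differences that had passed the adjusted p (-0.24 for Tap2, -0.38 for Tap1 and -0.36 for Tapbp for time in stimulated cells, and -0.32 for H2-D1 in the interaction with time). With scaling to the library's own total the genotype difference in unstimulated cells was 0.00798 for B2m and 0.0126 for Tapbp, that of time in stimulated cells 0.131 for Tap2 and 0.0153 for Tapbp, and the interaction with time 0.0763 for H2-D1 and 0.190 for B2m. With quantile normalization these were 0.0233 and 0.00485, 0.216 and 0.0278, and 0.135 and 0.357, Tap1 was at 0.0279 for time in stimulated cells, and B2m at -0.0233 for the interaction of genotype and stimulus. The cause was not tested. Leaving out libraries moved the genotype difference through 0 in unstimulated cells for B2m (-0.147 to 0.130), Tapbp (-0.0621 to 0.0547), Tap1 (-0.0126 to 0.228) and H2-D1 (-0.134 to 0.0073), in stimulated cells for B2m (-0.0504 to 0.0923), Tapbp (-0.117 to 0.0887), Tap2 (-0.0584 to 0.0699), H2-K1 (-0.0181 to 0.101) and H2-Q7 (-0.195 to 0.256), and in the interaction with the stimulus for B2m (-0.109 to 0.168), Tapbp (-0.113 to 0.0924) and Tap1 (-0.191 to 0.0497). That of B2m for time in stimulated cells ran from -0.0139 to 0.0574. No paired analysis was possible because the groups share no replicate numbers.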
